A study of Drosophila melanogaster with 4 samples.

Results

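Followed here in larval salivary glands of Drosophila melanogaster were 10 genes of the cell death machinery: the death inducers rpr and W (hid), the caspases Nc (Dronc), Ice (Drice), Dcp-1 and Dredd, the inhibitors th (Diap1) and Iap2 (Diap2), the adaptor Ark (Dark) and the Bcl-2 family gene debcl. They were taken by gene name from a table of read counts, and all 10 were found among its 9931 genes. The counts come from RNA-seq of total RNA from glands dissected in the third larval instar, with 2 libraries of the JIL-1 null mutant Z2 (genotype JIL-1-/-) and 2 of wild type, for which no strain name is given. JIL-1 is a chromosomal kinase that phosphorylates histone H3 in the open interbands of polytene chromosomes. The labels do not say whether libraries of the same genotype were made from different dissections, and the p-values below then describe library-to-library spread that may be no more than technical. The genotypes may also differ in strain background and in exact stage, which cannot be told apart from the loss of JIL-1 here.

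In flies the inhibitor th holds caspases in check and marks them for degradation by the ubiquitin system. The proteins of rpr and W bind th and release the caspases. The freed initiator Nc joins Ark in a complex called the apoptosome and cleaves the effector caspases, mainly Ice and Dcp-1, which then cut many cellular proteins. Dredd and Iap2 also serve the Imd pathway of innate immunity. Larval salivary glands are removed in the pupa after a late pulse of the steroid hormone ecdysone, which induces rpr and W there. Larval glands have not yet reached that point.

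The libraries held 8071769 and 11369094 counts in JIL-1 null, against 6222322 and 8496047 in wild type. Levels below are CPM, read counts scaled to the library total with TMM factors, and JIL-1 itself had 55.5 and 55.8 CPM in JIL-1 null, against 93.4 and 77.0 CPM in wild type. Its RNA was thus still counted in the mutant, with a log2 fold change of -0.61 ± 0.12 (adjusted p = 0.0147, edgeR). All 12 salivary gland markers were detected, and their summed level was 351072 to 373935 CPM in JIL-1 null, against 344941 to 405305 CPM in wild type. Most of that sum comes from a few secreted glue genes. Of the 12 markers 4 were called, or 33.3%, close to the 30.7% of all tested genes. PH4alphaSG1 was 17.6-fold and PH4alphaSG2 2.89-fold higher in JIL-1 null, and Sgs1 was 2.37-fold and sage 1.46-fold lower. Markers of other tissues were lower in JIL-1 null in several lists. Fat body markers, 7 of 7 in the table, summed to 38384 to 38395 CPM in JIL-1 null, against 57207 to 68110 CPM in wild type, although the larval serum protein gene Lsp1gamma went the other way, with 31509 and 56510 counts in JIL-1 null, against 47 and 60 in wild type. The 5 midgut markers summed to 14.5 to 17.2 CPM in JIL-1 null, against 99.1 and 253 CPM in wild type libraries 1 and 2. Of these, LysD, Jon25Bii and epsilonTry were high in wild type library 2 alone. Their counts there were 603, 455 and 146, against 12, 8 and 12 in wild type library 1. LysP and Mal-A6 were lower in JIL-1 null than in both wild-type libraries, and whether their RNA comes from midgut or from the gland itself was not tested. LysP averaged 5.62 CPM in JIL-1 null and 34.2 CPM in wild type, and Mal-A6 8.59 and 62.9 CPM. The 8 haemocyte markers summed to 78.2 to 80.7 CPM in JIL-1 null, against 125 to 127 CPM in wild type, most of it from srp and crq, which are not confined to haemocytes. Of the others, Hml, He, eater and NimC1 had at most 6 counts per library in JIL-1 null, against 4 to 23 in wild type. Sr-CI had 1 and 3 counts in JIL-1 null, against 5 and 5 in wild type. Pxn had 15 and 25 counts in JIL-1 null, against 21 and 20 in wild type, and was not called. The 8 muscle markers (102 to 113 CPM in JIL-1 null, against 78.7 to 135 CPM in wild type) and the 5 imaginal cell markers in the table (7.60 to 16.7 CPM in JIL-1 null, against 9.75 to 21.8 CPM in wild type) overlapped between genotypes. Among the muscle markers Mlc1 was called higher, with 35.1 CPM in JIL-1 null and 5.03 CPM in wild type, Mlc2 was called lower, and the other 6 were not called. The 4 neuron markers summed to 28.1 to 31.5 CPM in JIL-1 null, against 49.8 to 68.2 CPM in wild type, with nSyb and brp at 6 counts or fewer in each library. Most of that difference came from Syt1, called lower, with 21.8 and 21.5 CPM in JIL-1 null, against 43.0 and 60.8 CPM in wild type. The neuron gene elav went the other way without being called, with a mean of 7.70 CPM in JIL-1 null and 6.11 CPM in wild type. The part of these tissues in the results below was not tested, and in such bulk samples fewer cells of a type cannot be told apart from less RNA per cell.

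The initiator caspase gene Nc was the most changed of the 10 and was 3.37-fold lower in JIL-1 null. The inducer rpr and the adaptor Ark were also lower. The inhibitor genes th and Iap2 overlapped between genotypes, Ice and Dredd were lower without passing the test, and W, Dcp-1 and debcl were slightly higher without passing the test. All 10 genes had enough counts to be tested. In the fit over 7958 genes, 3 of the 10 fell and 0 rose at 0.05 by the quasi-likelihood test of edgeR, with p-values adjusted by Benjamini-Hochberg over all of them. At an unadjusted p under 0.05 in edgeR, 5 were lower and 0 higher. Such p-values were common: the muscle marker Tm2, with an unadjusted p of 0.0432 in edgeR, ranked only 3337 of 7958. DESeq2 called 2 of the 10 lower and 0 higher, beside 1158 lower and 571 higher of 8775 genes. By limma-voom 3 were lower and 0 higher, beside 1364 and 1040 of 7958 genes. In the main edgeR fit 30.7% of all tested genes were called, 13.5% higher and 17.2% lower, so the share of 3 in 10 is close to the background. The balance over all genes depended on scaling: 44.0% of the called genes were higher, and 59.4% with upper quartile scaling, which left the 10 genes at 3 lower and 0 higher. The libraries of the genotypes did not overlap for 8 of the 10 genes, where 70.3% of all tested genes did not. The median log2 fold change of the 10 genes was -0.22, against 0.03 for all tested genes. With each library left out in turn, the log2 fold change ran from -1.91 to -1.61 for Nc. It ran from -1.02 to -0.64 for rpr and from -0.61 to -0.395 for Ark. The calls of rpr and Ark were lost in some of these fits, where fewer genes were called over the whole table as well.

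**Figure D1:**
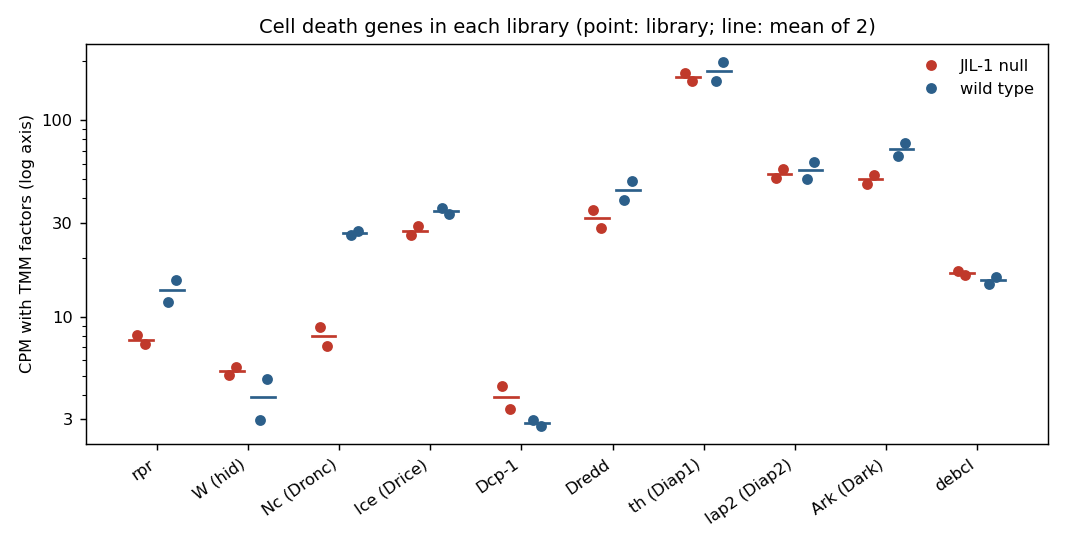
CPM of the 10 genes (log axis), with a point for each of the 2 libraries of JIL-1 null (red) and wild type (blue) and a line at their mean. The Nc points lie at 8.90 and 7.10 CPM in JIL-1 null, against 26.1 and 27.5 CPM in wild type, the widest gap of the 10, while the points of th and Iap2 overlap.

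Among the death inducers, rpr encodes a short protein that binds th through its N-terminus. It had 65 and 86 counts in JIL-1 null, against 76 and 122 in wild type. Scaled to library size this was 8.04 and 7.27 CPM in JIL-1 null, against 11.9 and 15.4 CPM in wild type. Both mutant libraries lay below both wild-type libraries. The log2 fold change, given throughout as JIL-1 null over wild type with its standard error, was -0.85 ± 0.19, or 1.80-fold lower in JIL-1 null (edgeR, adjusted p = 0.0222). DESeq2 did not call it (adjusted p = 0.0702), nor did edgeR without JIL-1 null library 1 (0.0910), JIL-1 null library 2 (0.147) or wild type library 2 (0.0593), and the alternatives together spread its adjusted p between 0.00556 and 0.147.

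The other inducer, W, the gene long called head involution defective or hid, did not follow rpr. It had 41 and 66 counts in JIL-1 null, against 19 and 38 in wild type. This gave 5.07 and 5.58 CPM in JIL-1 null, against 2.97 and 4.81 CPM in wild type. The genotypes did not overlap, but the gap between the nearest libraries was smaller than the gap between the wild-type libraries. The log2 fold change was 0.44 ± 0.30, with a 95% interval from 0.82-fold to 2.24-fold, and it did not pass the test (adjusted p = 0.301, edgeR). The further inducer genes of the same family in flies, grim and skl, were listed for comparison but are not analysed here, since no row of the table carried their names.

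Nc encodes the initiator caspase on which most developmental apoptosis in flies depends. Its counts were 72 and 84 in JIL-1 null, against 167 and 217 in wild type, although the wild-type libraries were the smaller pair on average. The levels were 8.90 and 7.10 CPM in JIL-1 null, against 26.1 and 27.5 CPM in wild type. The libraries within a genotype lay close together and the genotypes far apart. The mean was 7.999 ± 1.28 CPM in JIL-1 null and 26.8 ± 0.938 CPM in wild type (SD, n = 2 each), a log2 fold change of -1.75 ± 0.17 or 3.37-fold lower (edgeR, adjusted p = 0.00142). The 95% interval of the log2 fold change ran from -2.18 to -1.33. By p-value it ranked 288 of 7958 tested genes. Nc was called lower in the main test and in all 11 alternatives, with log2 fold changes from -1.91 to -1.61 and adjusted p from 2.56e-08 to 0.0234.

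Ark, the fly counterpart of Apaf-1, supplies the platform on which Nc is activated. It had 385 and 621 counts in JIL-1 null, against 421 and 603 in wild type. After scaling these became 47.6 and 52.5 CPM in JIL-1 null, against 65.9 and 76.3 CPM in wild type, with no overlap. The log2 fold change was -0.51 ± 0.12, or 1.42-fold lower (edgeR, adjusted p = 0.0237). Without JIL-1 null library 1, JIL-1 null library 2 or wild type library 2 the adjusted p was 0.169, 0.105 and 0.0593, with extremes of 0.00941 and 0.169 among the alternatives. An antisense RNA gene, asRNA:CR44390, covers 56.9% of the Ark exons in the BDGP6.54 annotation, and since use of strand in counting is not given, reads of these genes cannot be told apart.

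The effector caspase gene Ice, the main executioner of the fly, had 26.1 and 28.8 CPM in JIL-1 null, against 35.8 and 33.4 CPM in wild type. Its counts were 211 and 341 in JIL-1 null, against 229 and 264 in wild type. The mutant libraries were both lower, yet the difference missed the threshold, with a log2 fold change of -0.33 ± 0.11 (adjusted p = 0.0728, edgeR) and a 95% interval from 0.656-fold to 0.964-fold. The second effector gene, Dcp-1, which is best known from the death of nurse cells in the ovary, was far less abundant. It had 36 and 40 counts in JIL-1 null, against 19 and 22 in wild type, or 4.45 and 3.38 CPM in JIL-1 null, against 2.97 and 2.78 CPM in wild type. The genotypes did not overlap, but the log2 fold change of 0.43 ± 0.31 did not pass the test (adjusted p = 0.328, edgeR), and its interval reached from 0.801-fold to 2.28-fold. The gene pita overlaps 13.7% of the Dcp-1 exons on the opposite strand and had 29.5 and 26.9 CPM in JIL-1 null, against 24.9 and 22.0 CPM in wild type, so a part of the few Dcp-1 reads may belong to either gene.

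Dredd, the apical caspase that cleaves Imd and Relish in the immune response, had 284 and 335 counts in JIL-1 null, against 250 and 390 in wild type. Its levels were 35.1 and 28.3 CPM in JIL-1 null, against 39.1 and 49.4 CPM in wild type. Both mutant libraries were below both wild-type libraries, with a log2 fold change of -0.49 ± 0.16 (adjusted p = 0.0648, edgeR). Dredd passed the threshold without wild type library 1 (adjusted p = 0.0174) and with the size factors of DESeq2 in the edgeR fit (0.0489), and the alternatives spread its adjusted p between 0.0174 and 0.342.

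The inhibitor th was the most abundant of the 10 genes. It had 1401 and 1873 counts in JIL-1 null, against 1015 and 1561 in wild type. Scaled, these were 173 and 158 CPM in JIL-1 null, against 159 and 198 CPM in wild type. The genotypes overlapped, and the log2 fold change of -0.11 ± 0.14 did not pass the test (adjusted p = 0.590, edgeR). Its 95% interval ran from 0.738-fold to 1.17-fold, so a change the size of that in Nc lies outside it. The second inhibitor, Iap2, which restrains Ice in flies and is needed for Imd signalling, had 409 and 668 counts in JIL-1 null, against 321 and 487 in wild type. This gave 50.6 and 56.4 CPM in JIL-1 null, against 50.2 and 61.6 CPM in wild type, again with overlap. Its log2 fold change was -0.07 ± 0.13 (adjusted p = 0.740, edgeR; interval from 0.765-fold to 1.195-fold). The sign of both small differences turned with upper quartile scaling, to 0.03 for th and 0.07 for Iap2, and also turned when some libraries were left out. An antisense RNA gene, asRNA:CR45889, lies over 347 of the 3143 exon bases of th.

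The gene debcl encodes a pro-apoptotic member of the Bcl-2 family. It had 139 and 193 counts in JIL-1 null, against 94 and 126 in wild type, or 17.2 and 16.3 CPM in JIL-1 null, against 14.7 and 15.9 CPM in wild type. The libraries of the genotypes lay side by side without overlap, and the log2 fold change of 0.12 ± 0.15 did not pass the test (adjusted p = 0.565, edgeR; interval from 0.846-fold to 1.41-fold).

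**Figure D2:**
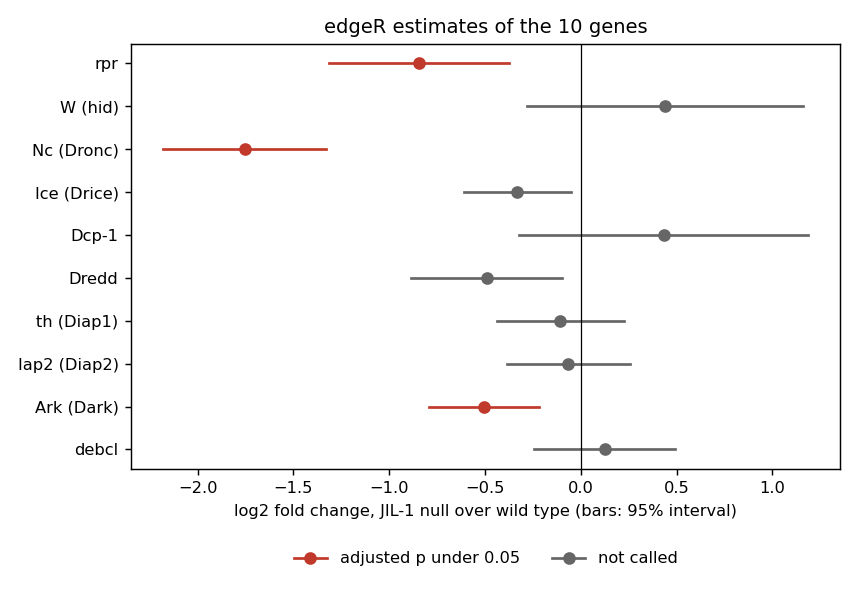
Log2 fold change of each of the 10 genes, JIL-1 null over wild type, with its 95% interval from edgeR; genes with an adjusted p under 0.05 are red. Nc stands apart at -1.75, rpr at -0.85 and Ark at -0.51 are the other called genes, and the intervals of W, Dcp-1, th, Iap2 and debcl include 0.

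The authors' deposited table gave the same 3 genes a false discovery rate under 0.05. In the authors' deposited table the fold of JIL-1 null over wild type was 0.323 for Nc (false discovery rate 0.00136), 0.607 for rpr (0.0195) and 0.763 for Ark (0.0253). Dredd came next in the authors' deposited table, with a fold of 0.777 and a rate of 0.0680.

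Levels of different genes were compared per kilobase of merged exons, with exon lengths from the BDGP6.54 annotation. On this scale th stood highest in both genotypes, at 52.7 ± 3.36 CPM per kilobase in JIL-1 null and 56.7 ± 8.71 in wild type (SD, n = 2 each). This was percentile 89.6 of tested genes in JIL-1 null and 89.1 in wild type. The inhibitors th and Iap2 thus held the first and second places of the 10, with Iap2 at 25.1 ± 1.95 CPM per kilobase in JIL-1 null and 26.2 ± 3.78 in wild type. Dredd followed at 18.6 ± 2.82 CPM per kilobase in JIL-1 null and 25.9 ± 4.24 in wild type, where it overlapped Iap2. Ice was next, at 14.2 ± 1.00 CPM per kilobase in JIL-1 null and 18.0 ± 0.891 in wild type.

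The lower places of that order differed between genotypes. In JIL-1 null the order went on with Ark (10.2 ± 0.706 CPM per kilobase), debcl (9.71 ± 0.360), rpr (8.49 ± 0.604) and Nc (3.97 ± 0.633), and only Ark and debcl overlapped. In wild type it went on with rpr (15.2 ± 2.78 CPM per kilobase), Ark (14.6 ± 1.51), Nc (13.3 ± 0.466) and debcl (8.89 ± 0.507), with rpr, Ark and Nc overlapping. Nc stood at percentile 32.1 of tested genes in JIL-1 null and 64.8 in wild type. Dcp-1 and W came last in both genotypes, at 2.24 ± 0.433 and 1.32 ± 0.0894 CPM per kilobase in JIL-1 null, and at 1.65 ± 0.0766 and 0.969 ± 0.323 in wild type. The level of th was 39.8 times that of W in JIL-1 null and 58.6 times in wild type.

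The deposited RPKM gave another order for these genes. By the authors' deposited RPKM, Ice came first in both genotypes, at 14.5 in JIL-1 null and 17.5 in wild type. In the authors' deposited table th had 14.0 RPKM in JIL-1 null, the second place, and 14.4 RPKM in wild type, the third place after rpr. Dredd ranked 7 of the 10 in JIL-1 null and 8 in wild type by that measure, and 3 in both by the merged exons. The gene length implied by the counts and the RPKM of JIL-1 null was 12000 bases for th, where its merged exons span 3143 bases and its 6 annotated transcripts sum to 11999 bases. For Dredd the implied length was 5724 bases against 1708 bases of merged exons, and for Iap2 4169 against 2134. For Ark it was 6754 bases, between its 4883 bases of merged exons and the 9707 bases of its 2 transcripts summed. For rpr, Nc, Ice, Dcp-1 and debcl, each with 1 annotated transcript, it lay close to the merged exons, at 900 against 901 bases for rpr and 1992 against 2015 for Nc. Over 3198 genes with 2 or more annotated transcripts and at least 200 counts in JIL-1 null, the implied length was a median of 1.99 times the merged exons and 0.986 times the summed transcripts, with 49.8% of them within 5% of that sum. Among them were 337 genes with 2 transcripts that share nearly all their bases and an implied length within 5% of the transcripts' sum. Of these, 54.6% and 52.2% had an even count in JIL-1 null libraries 1 and 2, and 54.0% and 48.1% in wild type libraries 1 and 2, where counting each read once per transcript would make most counts even. The order of the 10 genes by the deposited RPKM thus depends on lengths that differ from the merged exons for th, Dredd, Iap2, W and Ark. Levels of different genes by that measure are to be read with this limit. How the lengths were set is not given, and the cause of the difference was not tested.

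**Figure D3:**
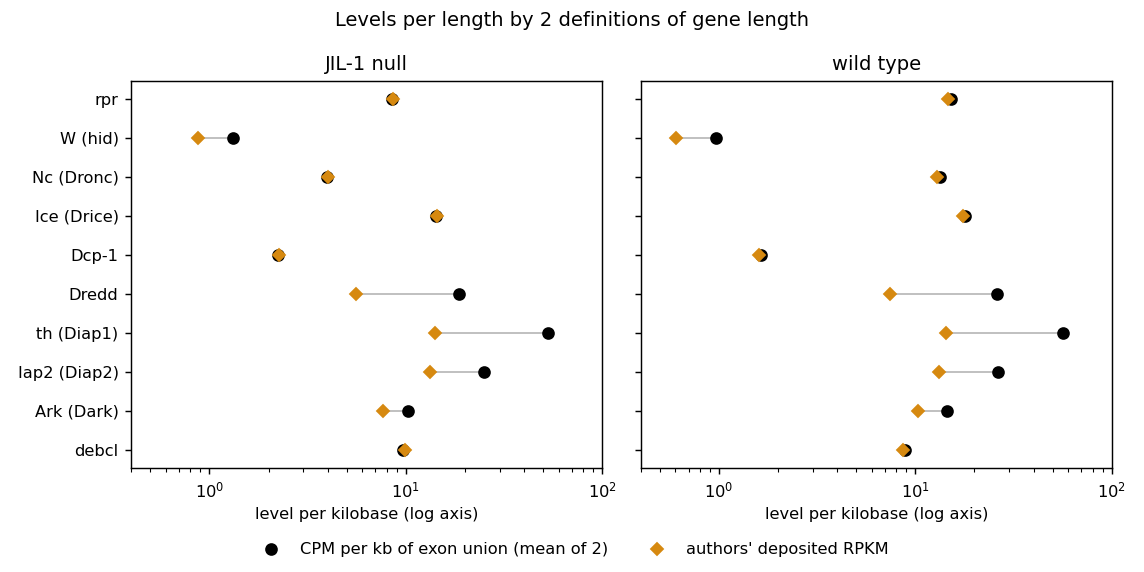
Level of each gene in JIL-1 null (left) and wild type (right) on a log axis, as CPM per kilobase of merged exons (black, mean of 2 libraries) and as the authors' deposited RPKM (orange). The pairs coincide for genes with 1 annotated transcript and lie apart for th, Dredd, Iap2, W and Ark, widest for th at 52.7 against 14.0 in JIL-1 null.

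Ratios of counts within a library do not depend on scaling between libraries, and 5 of them were compared. Ice counted 2.93 and 4.06 reads per Nc read in JIL-1 null, against 1.37 and 1.22 in wild type. The ratio of Ice to Nc was thus 2.67-fold higher in JIL-1 null, with no overlap. Ice itself was not higher (log2 fold change -0.33), so the ratio follows the lower level of Nc. The 4 caspases summed to 0.333 and 0.315 reads per read of th and Iap2 in JIL-1 null, against 0.498 and 0.436 in wild type. Within that sum Nc, Ice and Dredd were lower (log2 fold changes -1.75, -0.33 and -0.49) and Dcp-1 was higher (0.43). The inducers rpr and W summed to 0.0586 and 0.0598 reads per read of the inhibitors in JIL-1 null, against 0.0711 and 0.0781 in wild type. Here rpr was lower (-0.85) and W higher (0.44), so the lower sum is not shared by both inducers. Per kilobase of merged exons this inducer ratio was 0.129 and 0.123 in JIL-1 null, against 0.188 and 0.200 in wild type. Dcp-1 had 0.171 and 0.117 reads per Ice read in JIL-1 null, against 0.0830 and 0.0833 in wild type. The ratio of th to Iap2 was 3.43 and 2.80 in JIL-1 null, against 3.16 and 3.21 in wild type, and here the genotypes overlapped. With 2 libraries against 2, a two-sided exact permutation test cannot give a p below 0.333. It gave p = 0.333 for each of the first 4 ratios (0.416 with Benjamini-Hochberg adjustment over the 5) and 1.0 for th over Iap2 by the same exact test.

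**Figure D4:**
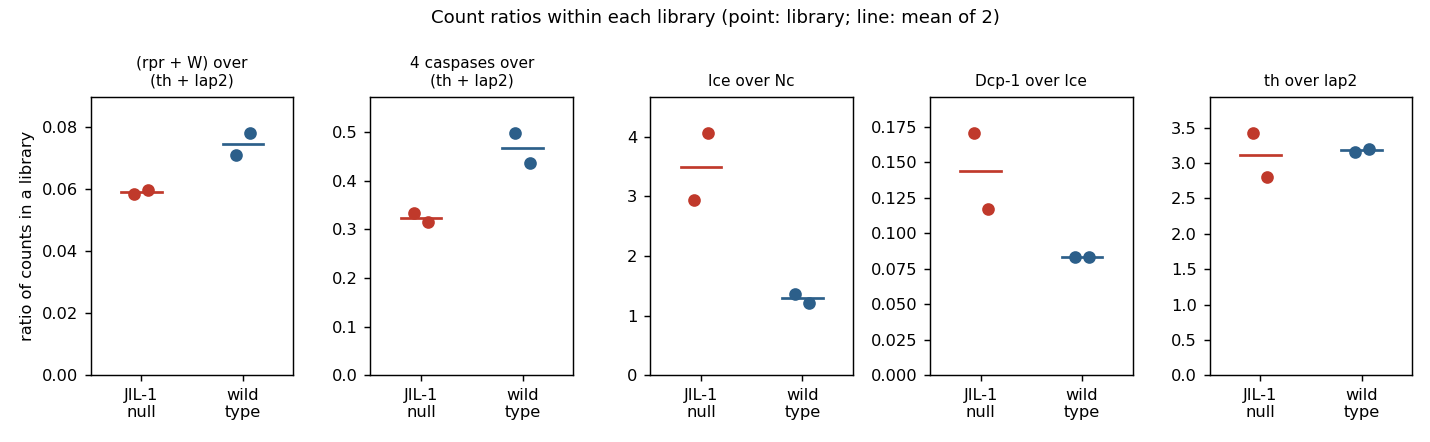
Ratios of read counts within each library for JIL-1 null (red, left in each panel) and wild type (blue), with a line at the mean of 2 libraries and axes from 0. The ratio of Ice to Nc is 2.93 and 4.06 in JIL-1 null, against 1.37 and 1.22 in wild type, while th over Iap2 overlaps.

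Other genes of cell death included a second caspase that fell. Of 34 listed genes, 32 were in the table and 30 were tested; 2 rose and 6 fell, 26.7% against 30.7% of all tested genes, with a median log2 fold change of -0.08. Strica, a caspase with a long prodomain that acts beside Nc in flies, averaged 20.5 ± 0.301 CPM in JIL-1 null and 66.3 ± 6.51 CPM in wild type (SD, n = 2 each). Its log2 fold change of -1.69 ± 0.11 was close in size to that of Nc (edgeR, adjusted p = 0.000450). The effector-type caspase gene decay, at -0.54 ± 0.23, did not pass the test, and Damm had 1 or 2 counts per library and was not tested.

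Genes of corpse clearance went in both directions. The adaptor gene ced-6, which acts downstream of the engulfment receptor drpr, averaged 39.6 ± 2.28 CPM in JIL-1 null and 126 ± 7.66 CPM in wild type, a log2 fold change of -1.67 ± 0.11 (adjusted p = 0.000447, edgeR). The receptor gene drpr itself rose, with 86.5 ± 14.7 CPM in JIL-1 null and 58.4 ± 2.00 CPM in wild type (log2 fold change 0.57 ± 0.14). DNaseII, a lysosomal nuclease gene, fell by 0.84 on the log2 scale, with 22.1 ± 1.16 CPM in JIL-1 null and 39.5 ± 0.123 CPM in wild type. AIF, which encodes a mitochondrial flavoprotein, rose to 13.7 ± 0.389 CPM in JIL-1 null, against 7.83 ± 1.77 CPM in wild type. The remaining genes that fell were Buffy, of the Bcl-2 family, at -0.69 ± 0.12, Drep4, the fly caspase-activated nuclease, at -0.63 ± 0.11, and the scavenger receptor gene crq, also listed among the haemocyte markers, at -0.35 ± 0.09, named here after their values were seen. The number of calls in this list depended on which library was left out, as it did over all genes. With upper quartile scaling 44.4% of the called genes were higher, against 25.0% in the main fit.

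The list of ecdysone and gland factors held transcription factors, the coactivator gene nej, the Mediator genes kto and skd, and dor. Several of these act on rpr, W, Nc or th in flies. Genes of the list fell more often than they rose. All 19 listed genes were tested; 8 fell and 1 rose, 47.4% against 30.7% of all tested genes, with a median log2 fold change of -0.23. The nuclear receptor genes Hr4, Eip78C and Eip75B had the smallest adjusted p among those that fell, with log2 fold changes of -2.05 ± 0.11, -1.65 ± 0.11 and -1.42 ± 0.13. The early factors that induce death genes in glands in flies also fell, br to 499 ± 23.2 CPM in JIL-1 null, against 882 ± 2.73 CPM in wild type, and Eip74EF to 336 ± 10.1 CPM in JIL-1 null, against 662 ± 7.39 CPM in wild type. The receptor gene EcR had 170 ± 9.22 CPM in JIL-1 null and 236 ± 1.08 CPM in wild type, and Hr39 had 68.2 ± 2.67 CPM in JIL-1 null and 142 ± 6.53 CPM in wild type; these 4 and sage, at -0.54 ± 0.14, complete the count and were named after their values were seen. Hr46 rose, at 0.81 ± 0.18.

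Several standard regulators of gland death did not pass the test. Eip93F, which is required for gland death in flies, had 20 and 12 counts in JIL-1 null, against 8 and 12 in wild type, and ftz-f1 averaged 6.75 ± 0.974 CPM in JIL-1 null and 4.69 ± 0.881 CPM in wild type. The gland factor fkh, which represses rpr and W in larval glands of flies, averaged 175 ± 11.2 CPM in JIL-1 null and 143 ± 25.4 CPM in wild type and was not called (adjusted p = 0.180, edgeR). The coactivator gene nej, at -0.04 ± 0.10, and the Mediator genes kto and skd, at 0.03 ± 0.10 and -0.23 ± 0.10, were not called either. These genes were chosen after their values were seen. Calls among the listed ecdysone and gland factors depended on which library was left out, as they did over all genes.

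Dredd and Iap2 were set beside 20 genes of the Imd pathway, all tested, of which 4 fell and 0 rose (20.0% called, against 30.7% of all tested genes; median log2 fold change -0.17). The share called lower was thus close to the 17.2% of all tested genes. At an unadjusted p under 0.05 in edgeR, 5 were lower and 1 higher, a cut passed by at least 3337 of the 7958 tested genes. DESeq2 called 5 lower and 0 higher, beside 1158 lower and 571 higher of 8775 genes. By limma-voom 4 were lower and 0 higher, beside 1364 and 1040 of 7958 genes. The negative regulators pirk and casp fell, pirk to 36.1 ± 1.78 CPM in JIL-1 null, against 84.1 ± 8.62 CPM in wild type (log2 fold change -1.22 ± 0.12), and casp by 0.57 on the log2 scale. The receptor gene PGRP-LC averaged 39.1 ± 9.76 CPM in JIL-1 null and 75.2 ± 2.02 CPM in wild type, and the ubiquitin-conjugating enzyme gene ben, named to complete the count, had a log2 fold change of -0.49 ± 0.11. BG4 (Fadd), the adaptor that brings Dredd to Imd, averaged 5.50 ± 0.257 CPM in JIL-1 null and 5.77 ± 2.40 CPM in wild type and was not called, nor was imd itself at -0.33 ± 0.15. Of the 7 fat body markers 4 were called lower and 1, Lsp1gamma, higher, and of the defining haemocyte genes Hml was called lower while He, eater and NimC1 had too few counts for the test. Their part in the Imd calls was not tested. The number of lower calls in the Imd list depended on which library was left out, as it did over all genes. With upper quartile scaling 20.0% of the called genes were higher, against 0 in the main fit.

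The JNK pathway, which can switch on rpr and W under stress in flies, had all 20 listed genes tested, of which 7 fell and 1 rose (40.0% called, against 30.7% of all tested genes, of which 17.2% were lower and 13.5% higher; median log2 fold change -0.27). Traf4, an adaptor gene of the pathway, averaged 25.0 ± 0.527 CPM in JIL-1 null and 70.1 ± 4.65 CPM in wild type (log2 fold change -1.49 ± 0.10). Gadd45 had 20.8 ± 2.55 CPM in JIL-1 null and 45.7 ± 5.93 CPM in wild type, and Jra, the fly Jun, had 59.1 ± 2.45 CPM in JIL-1 null and 127 ± 22.6 CPM in wild type. The other genes that fell were wnd at -1.40 ± 0.23, aop at -0.99 ± 0.18, raw at -0.62 ± 0.14 and wgn at -0.51 ± 0.15. They were named after their values were seen, to complete the count. The matrix metalloprotease gene Mmp1, a common JNK target, rose to 32.2 ± 5.86 CPM in JIL-1 null, against 20.5 ± 1.29 CPM in wild type. The kinase genes hep and bsk, at 0.02 ± 0.10 and 0.24 ± 0.12, and the feedback phosphatase gene puc, at -0.47 ± 0.17, did not pass the test; these 3 were chosen after their values were seen. Calls in the JNK list depended on which library was left out, as they did over all genes. With upper quartile scaling 25.0% of the called genes were higher, against 12.5% in the main fit.

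**Figure D5:**
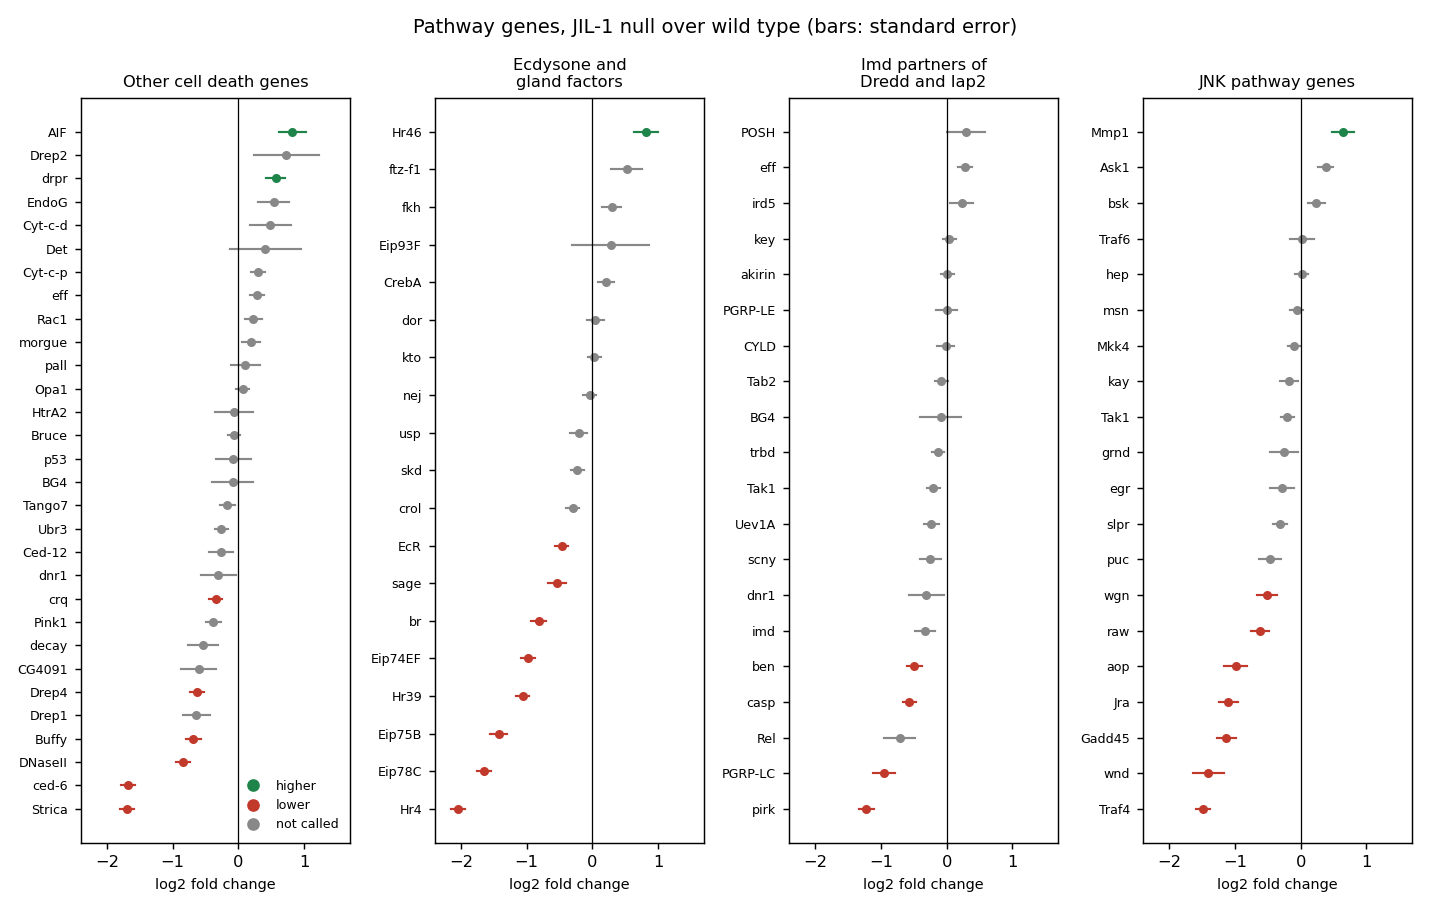
Log2 fold change of the tested genes of each list, JIL-1 null over wild type, with bars of 1 standard error; green genes were called higher, red lower and grey not called. Strica at -1.69 and ced-6 at -1.67 lie lowest in the first panel, Hr4 at -2.05 in the second, pirk at -1.22 in the third and Traf4 at -1.49 in the fourth.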

How the data were processed

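RNA-seq counts of 2 JIL-1 null and 2 wild-type libraries were analysed. The submitters' processing notes name the aligner GSNAP, with no version, and builds BDGP5 and dm3. What counted the reads, on which annotation and strand, and which test was used is not given in the sources used here. The authors deposited, per the file headers, a raw count per gene and library, an RPKM per genotype, a fold (ratio, mutant to wild type) and, as test statistics, a p-value and an FDR. The main test was edgeR 4.0.16 under R 4.3.3 (glmQLFit and glmQLFTest, two-sided, genotype only) with TMM factors and filterByExpr (count minimum 10, total minimum 15), which kept 7958 genes; the biological coefficient of variation was 14.9%. P-values were adjusted by Benjamini-Hochberg over these genes and called at 0.05. Standard errors and 95% intervals were derived from the F statistic. The edgeR fit was tested on simulated counts with a single dispersion shared by all genes. Such counts cannot show whether the libraries here are more than technical replicates. Exon lengths, symbols and overlaps came from the BDGP6.54 annotation (Ensembl), another build than the files', matched by identifier for 9523 of 9931 genes, and no coordinates are printed. Alternatives were DESeq2 1.42.0, limma-voom (limma 3.58.1), RLE and upper quartile factors, no filter, a mean of at least 5 CPM, a replicate block and leaving out each library.

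The 10 genes and the lists were chosen with earlier results of these data known. The rule for named genes took all 10 members and, per list, up to 3 higher and 3 lower called genes by smallest adjusted p. Other genes were chosen after their values were seen.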

Additional observations from a re-analysis of the deposited data

How the results depend on the processing

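Nc kept its direction and its call under every alternative run. Over all genes the median log2 fold change was 0.03, and 0.17 with upper quartile scaling, which gave 1690 higher calls over all genes, 4 among other cell death genes, 1 in the Imd list and 2 in the JNK list; DESeq2 gave 571, 1, 0 and 0. The JNK list also had 2 higher calls at a mean of at least 5 CPM, where W and Dcp-1 were not tested. The sign of th turned to 0.031 with upper quartile scaling and 0.059 without wild type library 2 (range over libraries left out -0.259 to 0.059), that of Iap2 to 0.072 with upper quartile scaling, 0.020 without JIL-1 null library 1 and 0.093 without wild type library 2 (range -0.205 to 0.093), and that of the log2 ratio of th to Iap2 to 0.11 without JIL-1 null library 2 (range over libraries left out -0.18 to 0.11). The log2 inducer to inhibitor ratio of -0.33 became -0.67 per length derived from the deposited RPKM. Dividing by implied lengths of 900 bases for rpr and 6310 bases for W gives rpr more weight than W in that ratio. The cause of the other shifts was not tested.

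Leaving out each library in turn gave 195 to 1186 higher and 524 to 1612 lower calls over all genes, 0 higher and 1 to 4 lower among the 10 genes, 0 to 2 and 2 to 9 among other cell death genes, 0 to 3 and 5 to 8 among ecdysone and gland factors, 0 and 1 to 7 in the Imd list, and 0 to 2 and 3 to 8 in the JNK list. In these fits the lone library of a genotype is assumed to vary like the others. Equal replicate numbers are not stated to pair libraries, and their deviations correlated at -0.078 over genes. With the replicate block 961 genes were higher and 1300 lower, and 0 and 3 of the 10. Dcp-1 and W had the fewest counts of the 10 genes, 19 to 66 per library, and the part of depth in their missing calls was not tested.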

Other observations

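Nc lies on chromosome arm 3L, the arm of JIL-1, and the table lists 39 genes between them in the order of the BDGP6.54 annotation. Of these, 32 were tested, and 4 were higher and 3 lower in JIL-1 null (21.9% called, median log2 fold change 0.03). Over the whole arm 207 of 1527 tested genes were higher and 281 lower (32.0% called, median log2 fold change 0.04). This stretch was chosen after the values were seen, and whether linkage to the mutant allele bears on Nc was not tested.

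In the authors' deposited table the false discovery rate was smaller than the p-value for 7 of the 10 genes and for 57.5% of all 9931 genes, as for th with a rate of 0.406 and a p-value of 0.928. A Benjamini-Hochberg adjustment cannot give a rate below its p-value, and the method used is not given in the sources used here.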
